A study of Homo sapiens with 9 samples.

Results

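Nascent RNA of irradiated wild-type RPE1 cells, labelled at 16 h after UV-C, was compared with that of mock-treated cells of the same line. These are 2 of the 9 libraries of a series on STK19 and the recovery of transcription after UV, with 1 library for each of 3 lines in each of 3 conditions. The irradiated cells received 12 J/m2 of UV-C and a 30 min pulse of 2 mM bromouridine that began 15.5 h later, whereas the mock cells received the pulse alone. The treatment protocol instead describes 16 h of incubation before the pulse, and the start at 15.5 h was taken here. Both come from RPE1, an established line of retinal pigment epithelium, in the derivative RPE1 iCas9 p53/puro-dKO, which carries Cas9 and is knocked out for p53 and puro. All libraries of the series share that background, so the recovery described here was measured without p53. WT means that STK19 was intact. Libraries of STK19 knockout (KO) cells, of the knockout with an STK19 transgene (rescue, mock only) and of WT cells at 3 h are used where named.

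UV-C makes bulky lesions in DNA that stop RNA polymerase II during elongation. A long gene offers more lesions than a short one, so nascent transcripts of irradiated cells are cut short far from the start site until transcription-coupled repair, which begins at the stalled polymerase, has cleared the template. In BrU-seq, an antibody against the incorporated bromouridine captures the RNA made during the pulse for sequencing, so signal along a gene shows where polymerases were at work during the pulse.

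The 2 libraries gave signal per 200-bp bin over 100 kb on either side of start sites. There were 9520 identifiers at 16 h and 9026 in mock, and the 8935 found in both were compared. The identifiers carry no gene names and 0 of them matched the reference table at hand, so gene names, gene ends, cell type markers, STK19 itself and sequences were not analysed here. Windows past the end of a gene hold whatever lies there, and neighbouring identifiers can share signal. The 16 h library was 3.63 times as deep as mock, judged from the smallest step between its values (0.373 against 1.35), and 63.0% of its bins were at 0 against 74.8% in mock. Summed signal over the shared identifiers was 18575510 at 16 h and 18952420 in mock. The libraries had thus been scaled to similar totals, and a change in total nascent RNA would not show. With 1 library a side there is no measure of spread between cultures, so every difference below is a description of these libraries, without a test.

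Summed signal at 16 h was lower next to the start site and higher from 5 to 50 kb, most so from 15 to 20 kb. The pooled ratio of 16 h over mock over all 8935 identifiers was 0.608 in the first 1 kb and 0.806 from 1 to 5 kb. In the 5-kb windows from 5 to 25 kb it was 1.04, 1.15, 1.24 and 1.18, in order of distance. It was 1.06 from 25 to 50 kb, where the mean signal per bin was 2.06 at 16 h and 1.94 in mock. Farther out the ratio lay close to 1, at 0.969 between 50 and 75 kb and at 0.967 between 75 and 100 kb, and it was 0.979 in the flank from 100 to 25 kb upstream. Counted by identifier, the first 1 kb leaned lower, with 45.2% of those with signal higher at 16 h, whereas 57.1% were higher from 1 to 5 kb and 53.7% (3420 against 2944 lower) over the whole first 5 kb. That last share turned to 45.5% when the 16 h library was centred on its median level change of 0.28 (log2) and to 47.5% among identifiers with a level of 1 or more. The order of identifiers by level (mean signal per bin from 0 to 25 kb) was largely kept, with a Spearman correlation of 0.93 across the 8935 identifiers, which share both libraries and are not independent.

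The authors' average profiles show the shape of this difference most clearly. They cover 308 genes of at least 100 kb, 787 of at least 50 kb and 1473 of at least 25 kb. In the longest genes the first 1 kb averaged 8.76 at 16 h against 12.9 in mock. The highest 200-bp bin of the first 5 kb stood at 10.5 at 16 h and at 16.4 in mock, so the peak at the start was lower after UV. As a 1-kb running mean, the 16 h profile first reached the mock profile 2600 bp from the start, and in 5-kb windows it was above mock from 5 to 85 kb. From 5 to 10 kb it stood at 5.93 against 4.13 in mock.

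The excess was broad. In genes of at least 100 kb the difference was largest from 15 to 20 kb, at 4.66 at 16 h against 2.67 in mock, and the ratio was highest from 30 to 35 kb, at 3.53 against 1.64. Both windows belong to a stretch of 10 windows of 5 kb, starting at 10 kb, in which 16 h was at least 1.5 times mock. The profiles also differ in form. The 16 h signal was lower in each window than in the one before it, in 19 of 19 steps, ending at 2.00 from 95 to 100 kb. Mock was lowest from 30 to 35 kb and ended higher, at 2.49, in that last window, where the ratio was 0.802.

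The classes with shorter genes had a smaller ratio from 25 to 50 kb, but their largest difference in any window was not smaller. That region runs past the end of genes shorter than 50 kb. The ratio from 25 to 50 kb was 1.87 for genes of at least 100 kb, 1.72 for those of at least 50 kb and 1.48 for those of at least 25 kb. The means there were 3.39, 3.81 and 4.23 at 16 h against 1.82, 2.22 and 2.85 in mock, in this order. These classes are nested. If each holds all genes of the next, subtraction leaves 479 genes of 50 to 100 kb and 686 of 25 to 50 kb, with ratios of 1.65 and 1.32 in this order. In the 686 genes of 25 to 50 kb the 16 h profile reached mock at 5200 bp from the start, against 2600 bp in the 479 longer ones. The largest difference outside the window from 65 to 70 kb, which is treated below, was 1.99 for genes of at least 100 kb, 2.19 for those of at least 50 kb and 2.18 for those of at least 25 kb. It lay from 15 to 20 kb, 10 to 15 kb and 15 to 20 kb, nearer the start than the region of the ratios. The course over the 100 kb also differed: the 16 h signal fell in 17 of 19 steps for genes of at least 25 kb, mock was lowest from 80 to 85 kb there, and the last-window ratio was 0.925. A rise from 2.79 to 4.11 came at the step into the window from 65 to 70 kb. Windows past 50 kb also lie beyond the ends of genes shorter than 50 kb, so this is not a contrast along the gene alone. The part of the first 100 kb of signal that fell between 25 and 50 kb does not depend on the scaling of the libraries. It made up 24.7% at 16 h against 18.0% in mock for genes of at least 100 kb, 24.7% against 19.7% for those of at least 50 kb, and 26.0% against 21.9% for those of at least 25 kb.

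**Figure D1:**
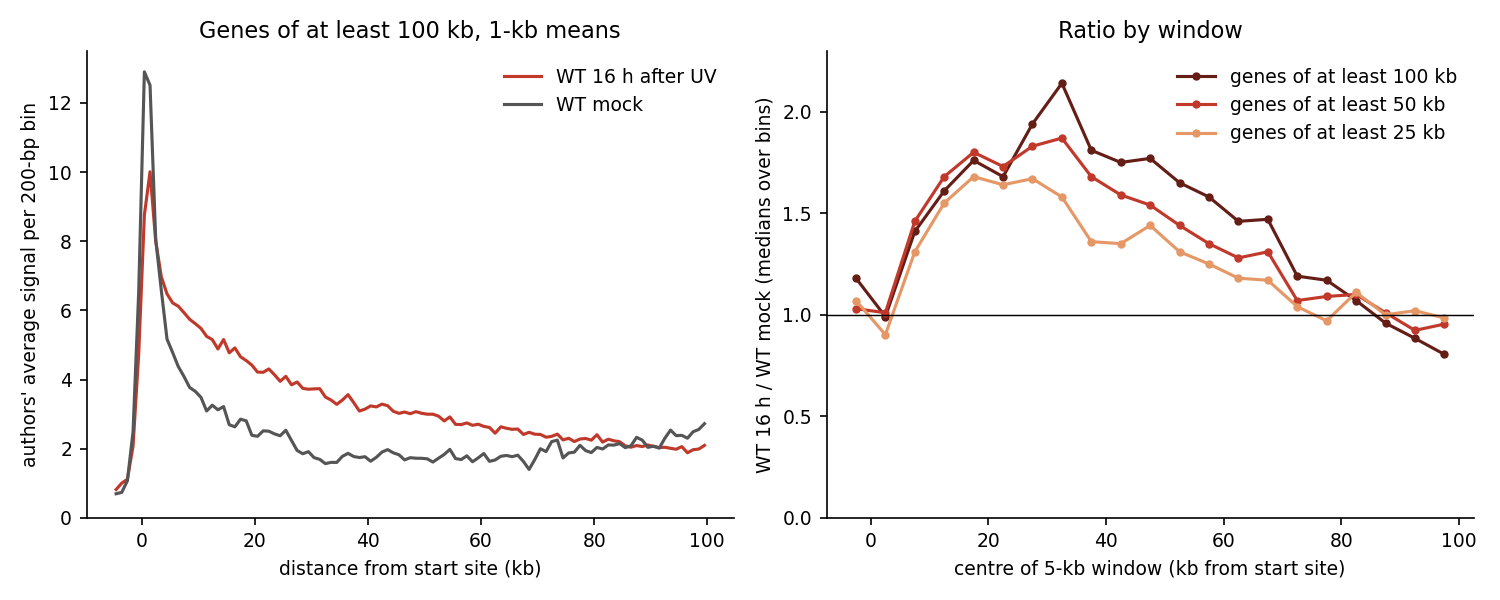
The left plot gives the authors' average signal per 200-bp bin, as 1-kb means, against distance from the start site for 308 genes of at least 100 kb, with WT 16 h in red and WT mock in grey. The right plot gives the ratio of WT 16 h over WT mock in 5-kb windows (medians over the 25 bins) for the 3 gene classes, and the ratio is above 1 from 5 kb to 70 kb in all 3, highest at 2.14 from 30 to 35 kb in the longest genes.

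A pair of adjacent bins stands out in the averages of the 2 shorter classes. In the bin at 66 kb the average of genes of at least 50 kb stood at 48.9 at 16 h and 8.85 in mock, and in the bin before it at 20.1 and 4.75. For genes of at least 25 kb the bin at 66 kb stood at 27.5 at 16 h and 5.89 in mock, and the one before it at 12.3 and 3.73. The average of genes of at least 100 kb had 2.58 at 16 h and 1.77 in mock at 66 kb. The pair makes 65 to 70 kb the window of the highest ratio for genes of at least 50 kb, at 2.12, while the median over the 25 bins of that window gives 1.31. In the 16 h library file, 1 identifier had 3389 in the bin at 66 kb and no other more than 252. In mock the same identifier had 1893 there. Summed over the genes of at least 50 kb, the 16 h average in that bin amounts to 38453. That sum is above 3389 and above the highest bin of the whole 16 h file, at 4240. Whether the identifier with 3389 is among the averaged genes is not known, and the source of the pair was not tested.

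By identifier, the excess from 25 to 50 kb was common but not general. Of 7745 identifiers with signal there in either library, 4915 were higher at 16 h and 2830 lower, a share of 63.5% higher. Mock is shallower and lists 28.9% of identifiers at 0 in this region against 16.1% at 16 h, and the upstream flank from 100 to 25 kb had 55.9% higher. A change of at least 2-fold on the log2(signal + 0.1) scale was found for 1387 identifiers upward, which is 15.5% of all, and for 560 downward, which is 6.27%. With a pseudocount of 0.5 the counts were 862 and 291. With the 16 h library centred on its median level change they were 1010 upward and 776 downward, so the size of the imbalance depends on the scaling. For comparison, 12.2% were at least 2-fold higher and 11.5% lower from 0 to 5 kb, and 11.4% higher and 7.31% lower from 75 to 100 kb. Of the summed excess, 55% lay in the top 491 identifiers (10% of those above mock). The deficit was more concentrated, with 74.8% of its sum in the top 283.

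Identifiers were next divided by their mock level into 5428 under 1, 1774 from 1 to 4, 1518 from 4 to 20 and 215 over 20. The bounds cut through a continuum: the identifiers on either side of the bound of 4 had 16 h levels of 7.37 and 3.38 and mock levels of 4.01 and 3.995. Because the class was set by the mock level, the change of the level itself is given without reading anything from it. Pooled over 0 to 25 kb the ratio was 1.57 for levels under 1, 1.51 from 1 to 4, 1.04 from 4 to 20 and 0.648 over 20. With classes taken from the KO mock library, which lies outside the comparison, it was 1.38 for the 5196 identifiers under 1 and 0.601 for the 173 over 20.

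The change next to the start differed by class, and since the mock signal there helped to set the class it is given as a description. In the class over 20, the first 1 kb averaged 34.8 at 16 h against 90.3 in mock, a pooled ratio of 0.385, and 17 of 207 identifiers with signal were higher. At mock levels from 4 to 20 it averaged 13.2 against 20.8, a ratio of 0.636, and from 1 to 4 it averaged 5.13 against 6.13, a ratio of 0.836. With classes set by KO mock, the pooled ratio in the first 1 kb was 0.966, 0.801, 0.633 and 0.353 in order of rising level, with means of 33.2 at 16 h and 94.3 in mock in the highest class. With classes set by the mean of both WT libraries, 29.2% of the class over 20 and 42.8% of that from 4 to 20 were higher from 0 to 5 kb, against 18.2% and 33.3% with classes set by mock. From 0 to 5 kb, 94 of the 215 identifiers over 20 (43.7%) were at least 2-fold lower and 9 (4.19%) at least 2-fold higher, against 11.5% and 12.2% of all identifiers.

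From 25 to 50 kb, the class from 1 to 4 had 551 identifiers at least 2-fold higher and 116 at least 2-fold lower, or 31.1% and 6.54% of the class, and its median log2 change was 0.48 (quartiles -0.15 and 1.20). The class from 4 to 20 had 402 higher and 108 lower, or 26.5% and 7.11%, with a median of 0.42 (quartiles -0.23 and 1.04). The class over 20 had 43 higher and 32 lower, or 20% and 14.9%, with a median of 0. The class under 1 had 391 higher and 304 lower, or 7.20% and 5.60%, also with a median of 0, and 43.9% of its identifiers had no mock signal there. Set against 15.5% and 6.27% of all identifiers, the classes from 1 to 4 and from 4 to 20 held more upward changes and about as many downward ones. The most active class held more of both. The medians depended on scaling and pseudocount. After centring they were 0.25 from 1 to 4, 0.17 from 4 to 20 and -0.23 over 20, where 44.4% were then higher, and with a pseudocount of 0.5 they were 0.30, 0.26 and 0.

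The place of the highest typical change moved outward with the mock level. In the class from 1 to 4 the window medians were highest at 0.77, first from 10 to 15 kb, and stayed above 0 in all 20 windows. In the class from 4 to 20 the median was -0.31 in the first 5 kb, highest at 0.59 from 25 to 30 kb, and above 0 in 19 windows. In the class over 20 it was -0.76 in the first 5 kb, first above 0 from 25 to 30 kb at 0.06, and highest at 0.43 from 45 to 50 kb. Pooled signal, which the strongest identifiers dominate, gave a different picture for that class: its ratio was below 1 in all 20 windows and at most 0.945. In the class from 4 to 20 the pooled ratio was above 1 in 9 windows and highest, at 1.30, from 15 to 20 kb. The mock signal that set the classes is also the denominator within the first 25 kb. With classes set by KO mock, the tops of the window medians lay in the same windows, at 0.79 from 10 to 15 kb, 0.58 from 25 to 30 kb and 0.38 from 45 to 50 kb in order of level.

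**Figure D2:**
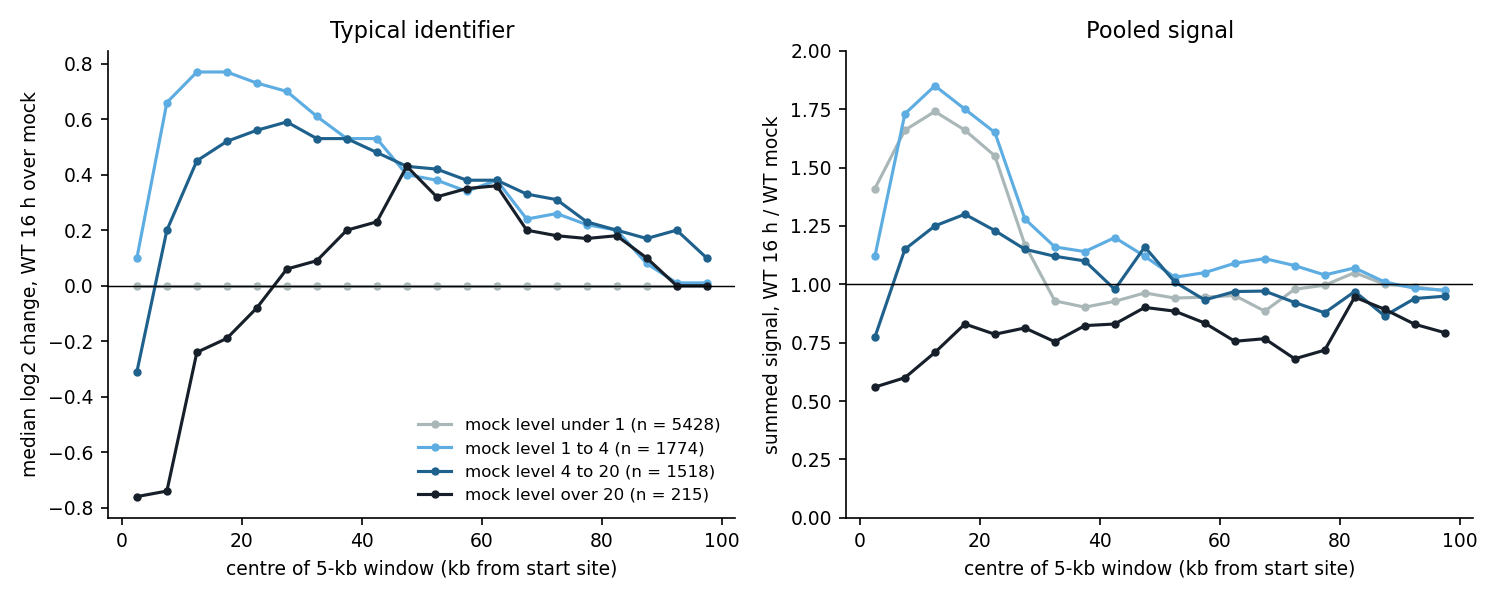
The left plot gives the median log2 change of WT 16 h over WT mock and the right plot the ratio of summed signal, both in 20 windows of 5 kb by distance from the start site, for 4 classes of mock level. Medians rise and then decline with distance in the 3 classes of level 1 or more, with tops of 0.77, 0.59 and 0.43 that lie farther out as the level grows, while the pooled ratio of the class over 20 stays under 1.

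The sign of the change at the start (0 to 5 kb) and in the middle (25 to 50 kb) was set side by side for each identifier. In the class from 1 to 4, 762 of 1774 were higher in both, 437 lower at the start and higher in the middle, 306 lower in both and 196 higher at the start and lower in the middle. In the class from 4 to 20 these counts were 412, 599, 403 and 90 of 1518, and in the class over 20 they were 24, 84, 90 and 15 of 215. Lower in both was the commonest pair in the most active class, by 90 against 84, and higher in both the commonest from 1 to 4. The mock signal at the start helped to set the class, so nothing is read from how the pairs differ between classes. The signs also depend on the scaling: centring took the share higher from 0 to 5 kb from 56% to 44.8% at levels from 1 to 4.

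The log2 change was larger from 25 to 50 kb than from 0 to 5 kb in 66.6% of the class from 1 to 4, 79.3% of that from 4 to 20 and 79.5% of that over 20. The median gap between the 2 changes was 0.47, 0.78 and 0.93 on the log2 scale in these classes, and a shift of scale between the libraries would leave it nearly as it is. With classes set by KO mock the shares were 66.8%, 76.7% and 81.5%.

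The window of the largest excess was then found for each identifier with a mock level of at least 1. Of 3507 identifiers, 3467 exceeded mock in at least 1 of the 20 windows. The largest difference in signal fell from 0 to 25 kb in 1665 of them (48.0%), and in 1458 of those it lay past the first 5 kb. It fell from 25 to 50 kb in 769 (22.2%), from 50 to 75 kb in 469 (13.5%) and from 75 to 100 kb in 564 (16.3%). The single most frequent window was 5 to 10 kb, with 463 identifiers. By the largest log2 change the positions moved outward, with 895 (25.8%) from 0 to 25 kb, 1103 (31.8%) from 25 to 50 kb and the most frequent window from 25 to 30 kb. The absolute excess thus lay nearer the start, where signal is strong, than the relative excess.

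**Figure D3:**
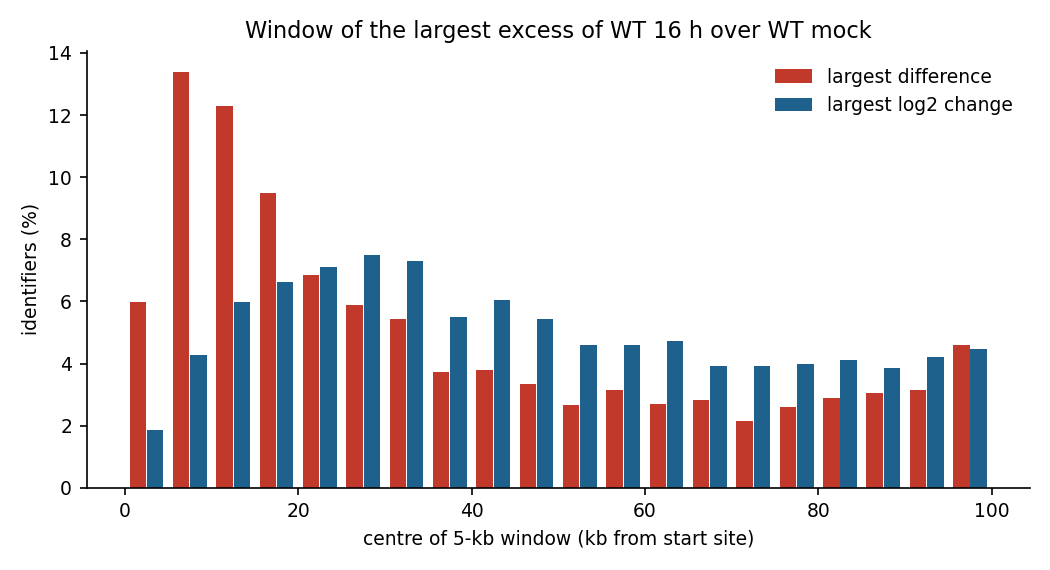
Bars give the percentage of 3467 identifiers with a mock level of at least 1 whose largest excess of WT 16 h over WT mock fell in each 5-kb window, by difference in signal (red) and by log2 change (blue). Differences gather from 5 to 20 kb, and log2 changes, taken with a pseudocount of 0.1, spread wider, with their top from 25 to 30 kb.

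Profiles of single genes are mixed with those of neighbours when the transcribed span is short. A set of 403 identifiers with signal along the whole 0 to 100 kb was therefore taken, chosen on KO mock and rescue mock, neither of which enters the comparison. Each of their 20 windows held at least 0.5 in the mean of those libraries, no window reached 6 times the median, and the signal from 5 to 1 kb upstream was under 0.5 times the median. Gene ends are not known, so a run of adjacent genes can also meet this rule, and signal of neighbours is not excluded. By WT mock level, 183 of the 403 belonged to the class from 1 to 4, 190 to that from 4 to 20, 17 to that under 1 and 13 to that over 20.

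In this set the 16 h excess reached far into the span. The median log2 change was 0.04 in the first 5 kb, 0.66 from 5 to 10 kb and highest at 0.93 from 25 to 30 kb. In that window 299 of 403 were higher at 16 h. At least 2-fold higher were 192 and at least 2-fold lower 29, against 22% and 8.84% of all 8935 identifiers in the same window. The median then declined to 0.56 from 50 to 55 kb and 0.04 from 95 to 100 kb, and 20 of 20 window medians were above 0. The medians of the first 5 kb and from 85 kb on were under the median level change of 0.28, so their sign depends on the scaling. Pooled ratios were above 1 in 16 windows. They were 0.852 in the first 5 kb and 0.905, 0.961 and 0.977 in the windows from 85 kb on. Mean signal per bin from 25 to 50 kb was 5.54 at 16 h and 4.60 in mock, a pooled ratio of 1.20, while the median log2 change was 0.67. The spread between identifiers was wide, with quartiles of -0.08 and 1.37 for the change from 25 to 50 kb.

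The WT library at 3 h and the KO libraries give the setting of these values. From 25 to 50 kb the pooled ratio over the same 403 identifiers was 1.20 for WT 16 h over mock and 0.813 for WT 3 h over mock, which shares the mock library. For KO 16 h over KO mock it was 0.798. Median log2 changes there were 0.67, -0.56 and -0.31 in this order. The window medians of WT 3 h were below 0 from 20 kb onward, down to -1.53 from 80 to 85 kb. Those of KO 16 h were above 0 in 3 windows and as low as -1.13, from 95 to 100 kb. However, KO mock is the denominator of the KO change and helped to choose the set. In 296 identifiers chosen by the same rule on rescue mock alone, a choice made after seeing the data, 19 of 20 window medians of WT at 16 h were above 0, with -0.04 as the lowest. In that set the median log2 change from 25 to 50 kb was 0.54 in WT at 16 h and -0.30 in KO at 16 h, and the lowest window median of KO was -1.16. The portion of the first 100 kb of signal that fell between 25 and 50 kb had a WT median of 20.1% in mock cells, 14.1% at 3 h and 24.3% at 16 h. It was above its mock value at 16 h in 288 of 403 identifiers in WT. In KO the median share was 19.6% at 16 h and 21.8% in mock, and 156 of 403 were above mock. No test of these differences between lines or times was made.

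**Figure D4:**
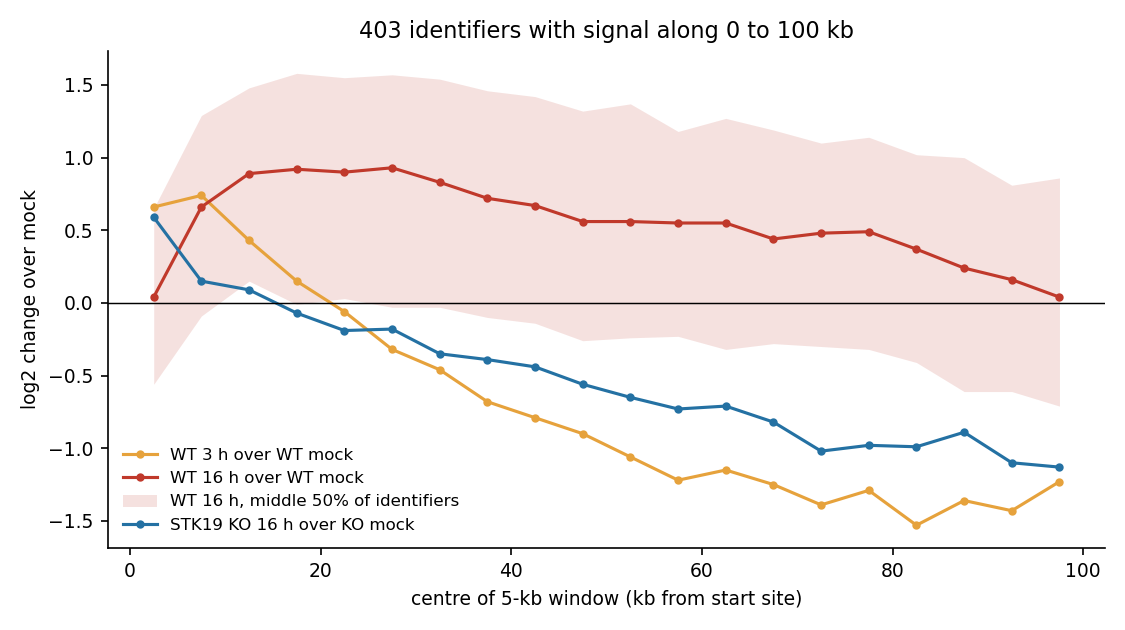
Lines give the median log2 change over mock in 20 windows of 5 kb for 403 identifiers with signal along 0 to 100 kb, for WT 3 h, WT 16 h and STK19 KO 16 h, each against the mock library of its line, and the band spans the quartiles of WT 16 h. The WT 16 h line stays above 0 in all windows with its top of 0.93 from 25 to 30 kb, and the other lines fall below 0 within the first 25 kb. At 0.04 in the first and last windows, the sign of the WT 16 h line depends on the scaling.

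Sorting identifiers by the length of their unbroken span (consecutive windows at 0.5 or more in the same KO and rescue mock mean, chosen after seeing the data) gave 857 with 5 to 20 kb, 705 with 25 to 45 kb, 628 with 50 to 95 kb and 536 with 100 kb. All 4 groups were lower in the first 1 kb, with pooled ratios of 0.521, 0.616, 0.589 and 0.632 in order of length. From 25 to 50 kb the median log2 change was 0.27, 0.50, 0.58 and 0.55, and 23.2%, 31.3%, 31.7% and 34.7% were at least 2-fold higher, against 15.5% of all identifiers. The shortest group is out of its own span there, yet its median was above 0.

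That region past short spans was examined by itself. Of the 857, 342 were nearly silent from 25 to 50 kb, with a mean under 0.1 per bin in KO and rescue mock. Their first 5 kb averaged 10.2 at 16 h and 16.4 in WT mock. From 25 to 50 kb they averaged 0.112 at 16 h and 0.0303 in WT mock, a pooled ratio of 3.70, and 245 were higher at 16 h while 58 were lower. The ratio was 2.93 without the 10 identifiers of the highest 16 h signal, which held 27.0% of it. The signal declined with distance, from 0.172 at 25 to 30 kb to 0.0868 at 45 to 50 kb at 16 h, against 0.0465 and 0.0337 in mock in these windows. Of the same identifiers, 180 were equally silent from 50 to 25 kb upstream, where the mean was 0.0278 at 16 h and 0.0224 in mock, a ratio of 1.24, or 1.02 without the top 10. The mean from 25 to 50 kb was 0.0303 in mock, 0.0384 at 3 h and 0.112 at 16 h. KO cells had a like increase there. In 355 identifiers chosen in the same way on rescue mock alone, the mean was 0.136 at 16 h and 0.0346 in mock in WT, a ratio of 3.93, and 0.161 at 16 h and 0.0462 in mock in KO, a ratio of 3.49. As a percentage of the mean signal in the first 5 kb, which does not depend on scaling, the WT means of the 342 were 0.185% in mock, 0.158% at 3 h and 1.10% at 16 h. These levels are low and strand was not known, so this signal cannot be told apart from that of unlisted starts.

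**Figure D5:**
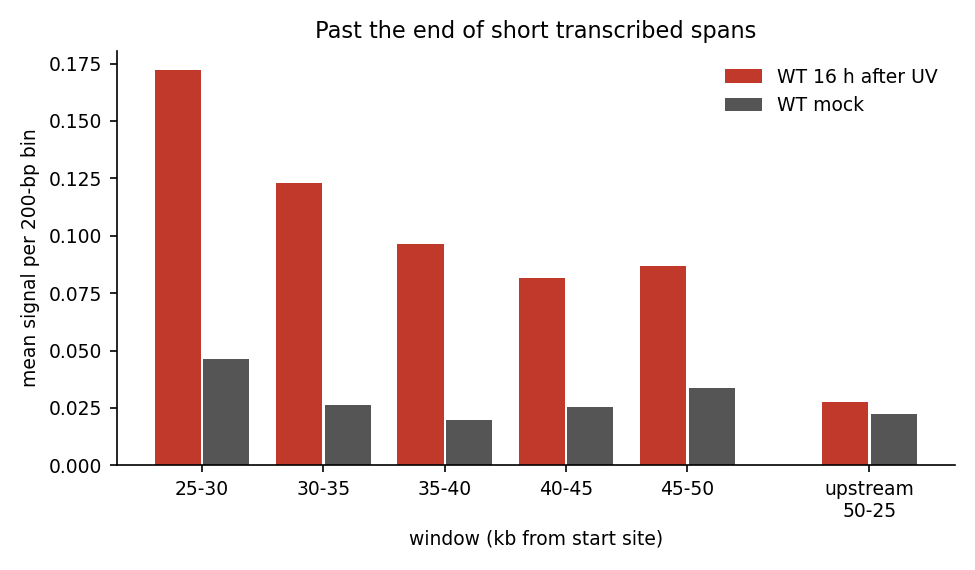
Bars give the mean signal per 200-bp bin of WT 16 h (red) and WT mock (grey) in 5-kb windows from 25 to 50 kb for 342 identifiers whose span ended before 25 kb, and, at the right, from 50 to 25 kb upstream for the 180 of them that were silent there. Signal at 16 h is above mock in each of the 5 downstream windows, at 0.172 against 0.0465 in the nearest, and the upstream bars are at 0.0278 and 0.0224.

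The extremes among well expressed identifiers show both directions. Of 1548 identifiers whose level averaged 4 or more over both libraries, with little upstream signal, 1118 were higher and 426 lower from 25 to 50 kb. The highest log2 change was that of uc010zwg.3, with 2.42 per bin from 25 to 50 kb at 16 h and 0.0217 in mock, which is 2 of the smallest steps of that library. Its level from 0 to 25 kb was 26.7 at 16 h and 16.4 in mock. Next was uc003dvp.4, with 1.66 from 25 to 50 kb at 16 h and a mock value listed at 0, and a level of 12.0 at 16 h against 9.26 in mock. In both, the gain from 25 to 50 kb, by which they were picked, lay in a region that was silent or nearly so in mock. At 3 h the values there were 0.401 and 0.286. KO had 2.4 at 16 h against 0.0517 in mock for uc010zwg.3, and 1.04 against 0.0931 for uc003dvp.4. The largest difference in WT lay nearer the start, where mock had signal. It fell in the first 5 kb of uc010zwg.3 (80.0 against 49.7) and from 10 to 15 kb in uc003dvp.4 (10.6 against 4.44).

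The identifiers that fell most were uc003uxq.4 and uc062ihi.1. In uc003uxq.4 the signal from 25 to 50 kb was 9.89 at 16 h and 118 in mock, a log2 change of -3.56, and at 3 h it stood at 75.5. Its level from 0 to 25 kb was 7.85 at 16 h and 16.4 in mock, so most of its mock signal lay far from the listed start, where the largest deficit (-258 per bin) fell in the window from 45 to 50 kb. In uc062ihi.1 the signal from 25 to 50 kb was 1.98 at 16 h and 21.0 in mock, a log2 change of -3.34, and its level from 0 to 25 kb was 4.32 at 16 h and 26.9 in mock. It was below mock in each of the 20 windows. Its level at 3 h was 5.10, close to that at 16 h. KO was also lower at 16 h than in mock from 25 to 50 kb, at 41.3 against 287 for uc003uxq.4 and 2.64 against 10.2 for uc062ihi.1.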

How the data were processed

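Each library file holds signal, deposited by the authors for 1001 bins of 200 bp around each start site per the file headers, and the average profiles are signal averaged by the authors over gene classes. Tools listed in the submitters' processing notes, without roles, are STAR 2.7.7a, HOMER 4.8.2, Trim Galore 0.6.5, R 4.0.5 and FastQC 0.11.9. GRCh38 and hg38 are the builds listed there. Values in each library were whole multiples of its smallest step, with a tolerance of 0.02 steps, and 76.3% of isolated runs at 16 h and 67.3% in mock filled 2 or 3 bins, so they were read as scaled coverage, not counts; steps give relative depth. The sources used here do not say whether strand was used in counting.

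Signal was averaged over windows with Python 3.11.15, and changes are log2((16 h + 0.1)/(mock + 0.1)). A call is a 2-fold change on that scale. No test was run with 1 library a side. Shares higher count identifiers with signal in either library. Identifiers named are the 2 highest and 2 lowest by change from 25 to 50 kb among those with a mean level of at least 4 and upstream signal from 25 to 1 kb under 0.5 times that level, skipping shared profiles (correlation over 0.8). The members, classes and lists were chosen with earlier results of these data known. The 3 h KO, 3 h rescue and 16 h rescue library files were not used.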

Additional observations from a re-analysis of the deposited data

Results flagged for a closer look

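From 25 to 50 kb in the 3 nested gene classes and in identifiers with signal along 0 to 100 kb, WT lay above its mock at 16 h and STK19 knockout below its own, and the difference between the lines was not tested. In the authors' averages the ratios to mock were 1.87 in WT and 0.69 in KO for genes of at least 100 kb, 1.72 in WT and 0.679 in KO for genes of at least 50 kb, and 1.48 in WT and 0.882 in KO for genes of at least 25 kb. Over the 403 identifiers with signal along 0 to 100 kb, the median log2 change from 25 to 50 kb was 0.67 in WT and -0.31 in KO. KO mock helped to choose that set, and 296 identifiers chosen on rescue mock alone had 0.54 in WT and -0.30 in KO. For shorter genes KO was not below its mock in this region, but the region lies partly or wholly past their ends. The KO ratio there was 1.06 for the 686 genes of 25 to 50 kb by subtraction. In the 5-kb windows of their first 25 kb it was 1.51, 1.09, 1.05, 0.95 and 0.977, in order of distance. Median log2 changes of KO from 25 to 50 kb were 0.12 and 0.08 for spans of 25 to 45 kb and 5 to 20 kb. KO mock helped to choose those spans too. Each line had 1 library per condition, and whether a region lies above or below mock depends on the authors' scaling.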

How the results depend on the processing

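No paired analysis was possible because each group has 1 library, and for the same reason no replicate could be left out. Centring the 16 h library on its median level change (0.28 on the log2 scale, over the 3647 whose level averaged 1 or more) lowered the share of identifiers higher at 16 h from 25 to 50 kb to 56.3%, and to 54.2%, 62.1% and 57.0% at mock levels under 1, from 1 to 4 and from 4 to 20. It turned the share from 0 to 5 kb to 45.5% over all identifiers and 44.8% at mock levels from 1 to 4, lowered the share from 75 to 100 kb to 51.9%, and put 45.8% and 23.8% of largest excesses at 0 to 25 kb and 25 to 50 kb. A mean level of at least 1 over both WT libraries gave 69.9% from 25 to 50 kb (89.0% and 72.2% at mock levels under 1 and from 1 to 4). Identifiers with a mock level under 1 pass that filter only with a 16 h level above 1. The filter thus favours a high share in the lower classes, and nothing is read from the 89.0%. The same filter gave 60.9% from 75 to 100 kb and a turned share of 47.5% from 0 to 5 kb. The direction of the near share over all identifiers therefore rests on low levels and scaling. Leaving out starts with upstream signal gave 67.2% (61.7% and 75.3% at mock levels under 1 and from 1 to 4) from 25 to 50 kb and 50.7% from 0 to 5 kb. A mean 25 to 50 kb signal of at least 0.5, chosen after seeing the data, gave 65%, and 58.6% at mock levels under 1. Classes from the mean of both WT libraries gave 57.8%, 72.7% and 58.2% at levels under 1, from 4 to 20 and over 20.

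Counts of 2-fold changes fell to 862 higher and 291 lower with a pseudocount of 0.5, and the lower count was 228, 279 and 363 with the filters on level, upstream signal and middle signal, which test fewer identifiers. Largest log2 changes put 25.8% at 0 to 25 kb and 31.8% at 25 to 50 kb, or 35.5% and 30.2% with a pseudocount of 0.5. With each average divided by its own mean from 0 to 100 kb, the 25 to 50 kb ratios were 1.37, 1.25 and 1.19 in order of falling gene length. Medians over bins moved the window of the highest ratio to the one starting at 30 kb for genes of at least 50 kb. No rows were identical in both libraries. The shallower mock library limits regions of low signal.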
